A study of Mus musculus with 6 samples.

Results

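The genes of 5 proteins that carry large neutral amino acids were followed across the cerebellum RNA-seq libraries of this study: Slc7a5, Slc3a2, Slc7a8, Slc43a1 and Slc43a2. They were chosen by name, as LAT1, its heavy chain and the related carriers LAT2, LAT3 and LAT4, and are 5 of the 46983 gene identifiers in the count tables. Of the 16851 genes with enough reads to be tested, 4 were members of this set, since Slc43a1 fell below the filter on low counts. The study compared 3 mice labelled WT with 3 labelled Slc7a5-KO, all of C57BL/6J background and taken at postnatal day 60. Per the labels, both groups carried Tie2-Cre, a recombinase driven by an endothelial promoter that is also active in blood lineages. The WT mice were Slc7a5 fl/+, with 1 floxed allele, and the Slc7a5-KO mice were Slc7a5 fl/fl. The controls were thus not free of the recombinase or of the floxed allele. A Tie2-Cre deletion leaves Slc7a5 in neurons, astrocytes and oligodendrocytes, which make up most of cerebellum RNA. The exons that the floxed allele removes could not be read from the labels.

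LAT1 is an obligatory exchanger: it takes up leucine, isoleucine, valine, phenylalanine, tyrosine, tryptophan, methionine and histidine, and sends another amino acid, often glutamine, the opposite way. It reaches the plasma membrane only when joined by a disulfide bond to the glycoprotein CD98hc, the product of Slc3a2, which it shares with LAT2 and several other light chains. LAT3 and LAT4 belong to a separate family, need no heavy chain and carry large neutral amino acids by facilitated diffusion. In brain, LAT1 is known as the main carrier of these amino acids and of the drug L-DOPA across the blood-brain barrier.

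On GRCm38, with GENCODE M21 gene models, Slc7a5 (ENSMUSG00000040010.10) lies on the minus strand of chromosome 8 from 121881150 to 121907694, and its merged exons cover 3708 bases. Slc3a2 (ENSMUSG00000010095.13) lies on the minus strand of chromosome 19 from 8706882 to 8723369, with 3529 exon bases. Slc7a8 (ENSMUSG00000022180.6, matched without its version number) lies on the minus strand of chromosome 14 from 54722209 to 54781946, with 5005 exon bases. Slc43a1 (ENSMUSG00000027075.16) lies on the plus strand of chromosome 2 from 84838850 to 84863594, with 5716 exon bases, and Slc43a2 (ENSMUSG00000038178.16) on the plus strand of chromosome 11 from 75531694 to 75577575, with 10042. The values below are reads over whole genes, so how far the carriers can be told apart by sequence bears on them. The longest coding sequences of Slc7a5 and Slc7a8 were identical at 63.5% of 1483 aligned bases, and their longest shared run was 13 bases. Those of Slc43a1 and Slc43a2 were identical at 68.3% of 1631 aligned bases, with a longest shared run of 18 bases. The windows around these runs, read from the GENCODE M21 transcripts, are shown because they hold the longest exact match of each pair. The shared run is in capitals, with 15 coding bases on each side:

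Slc7a5: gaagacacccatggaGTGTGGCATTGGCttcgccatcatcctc

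Slc7a8: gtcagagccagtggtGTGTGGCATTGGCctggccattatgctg

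Slc43a1: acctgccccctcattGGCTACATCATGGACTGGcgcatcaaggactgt

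Slc43a2: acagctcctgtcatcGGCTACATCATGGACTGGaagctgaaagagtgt

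No 50-base window of Slc7a5 (of 3704) or of Slc43a1 (of 5753) occurred in the transcripts of another gene. In Slc7a8, 4 of 4955 windows did, and in Slc3a2 125 of 3565 (3.51%), none of them coding. In Slc43a2, 891 of 10188 windows (8.75%) were shared. These included 111 of its 1658 coding windows, all shared with Gm45606, an antisense gene on the opposite strand from 75530277 to 75533071. The libraries keep the strand, and antisense reads over the gene were 2.41% of all strand-assigned reads for Slc43a2, 0.211% for Slc3a2 and 0.0780% for Slc7a5.

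Sequencing depth was 13.4 to 34.2 M (mega) gene reads per library, and Slc7a5-KO replicate 3 was the shallowest. By Xist and Y-linked genes, WT replicate 2 and Slc7a5-KO replicates 1 and 3 were female and the other 3 libraries male, so the groups were not balanced for sex. Slc7a5-KO replicate 2 stood apart. It had 699 genes at exactly 2 reads, against 230 to 308 in the other libraries, and a summed level of 11 choroid plexus markers of 38.9 counts per M reads (CPM), against 2410 to 5784 elsewhere, with the potassium channel subunit Kcne2 at 0. Markers of endothelial cells, astrocytes, oligodendrocytes, Purkinje cells and granule neurons were present in each library, as the cerebellum label calls for. No marker passed the test, but several lists leaned one way between the groups. Values for Slc7a5-KO over WT were below 0 for 6 of 6 Purkinje cell markers (median log2 difference -0.42), 6 of 7 granule neuron markers (-0.23) and 7 of 10 astrocyte markers (-0.12). They were above 0 for 9 of 10 microglia markers (0.27) and 7 of 8 pericyte markers (0.20). The summed astrocyte markers did not overlap, at 5557 to 5662 CPM in WT against 4940 to 5109 CPM. Among single genes tested, 5.54% were likewise apart with Slc7a5-KO lower, and such a share for sums was not computed. The list itself was mixed, with 3 of 10 markers above 0. Gfap was apart with Slc7a5-KO higher (log2 difference 0.55 ± 0.14, edgeR adjusted p 0.31). S100b was apart with Slc7a5-KO lower (-0.38 ± 0.13, edgeR adjusted p 0.64). The part of any of these lists in the transporter values below was not tested. Because whole tissue was sequenced, fewer cells of a type and less RNA per cell cannot be told apart.

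Slc7a5, the targeted gene, had no lower level in the libraries labelled Slc7a5-KO than in WT. After scaling by the trimmed mean of M-values (TMM), WT replicates 1 to 3 held 72.0, 66.3 and 43.2 CPM of it. The corresponding values of Slc7a5-KO replicates 1 to 3 were 164, 59.4 and 118 CPM. Replicates 1 and 3 of the latter were above all WT libraries, while replicate 2 lay within the WT range, so the groups overlapped. The group means were 60.5 ± 15.3 for WT and 114 ± 52.7 for Slc7a5-KO (CPM, SD, n = 3 each). By edgeR's quasi-likelihood test the difference was 0.91 ± 0.42 (SE) on the log2 scale, a 1.88-fold higher level with a 95% interval of 0.899 to 3.94, and its adjusted p was 0.84. The adjustment runs over all 16851 genes, of which 8 (0.0475%) passed an adjusted p of 0.05 in either direction. None of the 4 transporters tested was among them. Under an unadjusted p of 0.05, edgeR called 1048 genes (6.22%) and, again, none of the 4. In the authors' deposited table the unshrunken log2 fold change of Slc7a5 is 0.91, with p = 0.0516 and an adjusted p of 0.454.

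The Slc7a5 value rested on single libraries. Without Slc7a5-KO replicate 2, the library nearly without choroid plexus markers, it was 1.22 with an edgeR adjusted p of 0.010. Without replicate 1 it was 0.55, with an adjusted p of 0.75. With sex as a term in the model it was 0.57, with an edgeR adjusted p of 0.72, and replicate 2 was the only male library labelled Slc7a5-KO. The 25 endothelial markers, for the cells in which Tie2-Cre acts, summed to 782 to 850 CPM in WT and 721 to 854 CPM in those labelled Slc7a5-KO. Of these, 14 had a value above 0 and 11 below 0, with a median log2 difference of 0.12 against 0.0022 over all genes tested, and 0 of 25 passed. Choroid plexus markers summed to 2590 to 5784 CPM in WT and 38.9 to 4924 CPM in the other group, with 11 of 11 below 0 and none passing. The part of either in the Slc7a5 value was not tested. Relative to the mean log2 level of the endothelial markers, Slc7a5 stood at 1.94, 2.12 and 1.28 in WT and at 3.34, 1.73 and 2.62 in those labelled Slc7a5-KO. The difference of 0.79 ± 0.53 had a 2-sided exact permutation p of 0.3, where 3 against 3 cannot go below 0.1.

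**Figure D1:**
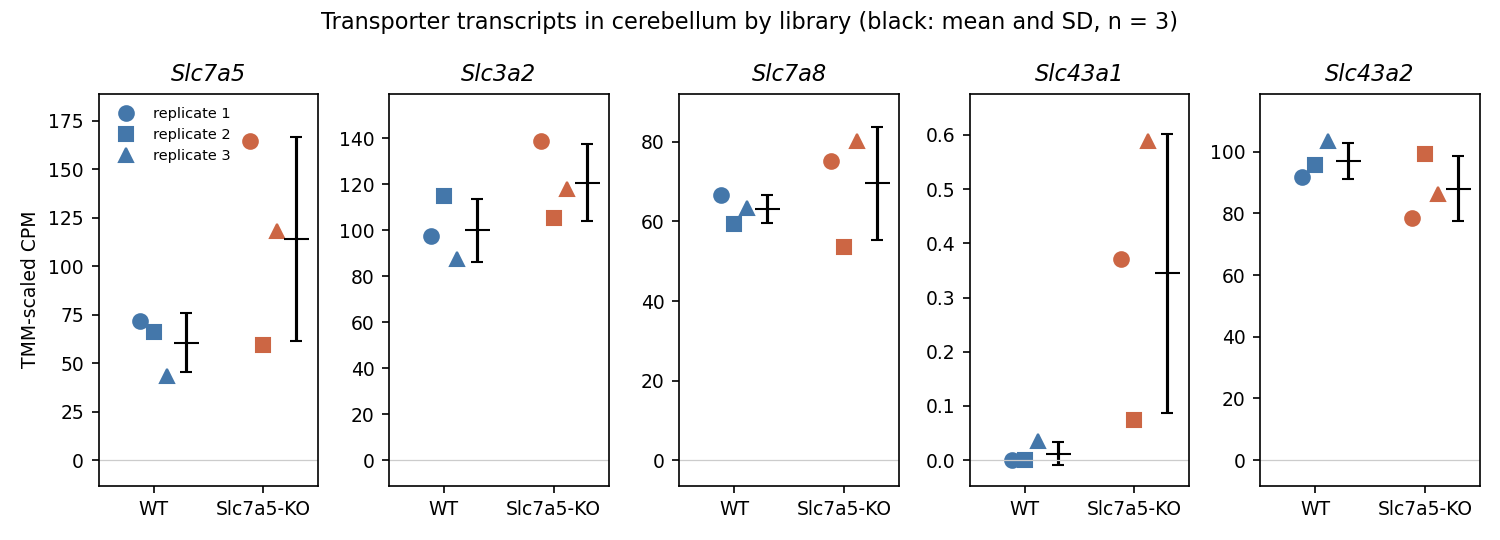
TMM-scaled counts per M reads of each transporter (vertical axes, one scale per gene) in the 3 WT and 3 Slc7a5-KO libraries, with the mean and SD in black. Slc7a5-KO replicates 1 and 3 are the highest pair for Slc7a5, Slc3a2, Slc7a8 and Slc43a1 and the lowest pair for Slc43a2; among the 5 genes the groups stand apart in Slc43a1 alone, which rests on few reads.

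Slc3a2 encodes the heavy chain CD98hc, which carries LAT1 and LAT2 to the membrane and binds integrin beta subunits. Its level was 97.5, 115 and 87.4 CPM in WT, against 139, 105 and 118 CPM in those labelled Slc7a5-KO. The groups overlapped, with WT replicate 2 above Slc7a5-KO replicate 2. The means were 99.9 ± 13.9 and 120.7 ± 16.8 CPM (SD, n = 3 each). The edgeR difference was 0.27 ± 0.14 on the log2 scale, 1.21-fold with a 95% interval of 0.980 to 1.49, and an adjusted p of 0.83. In the authors' deposited table the log2 fold change of Slc3a2 is 0.27 unshrunken and 0.23 ± 0.12 (SE) shrunken, with a Wald test adjusted p of 0.461.

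Whether the light and the heavy chain shifted by different amounts was tested as the log2 ratio of Slc7a5 to Slc3a2 within each library, from log2(CPM + 0.1). It was -0.44, -0.79 and -1.02 in WT and 0.25, -0.83 and 0.0018 in those labelled Slc7a5-KO. Replicates 1 and 3 of the latter were again the high pair. The difference of 0.55 ± 0.37 had a 2-sided exact permutation p of 0.3, also 0.3 when adjusted by Benjamini-Hochberg over the 2 ratios tested. Without Slc7a5-KO replicate 1 the difference was 0.34, and without replicate 2 it was 0.87.

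Slc7a8 encodes LAT2, the second light chain that pairs with CD98hc, which has a broader range of neutral substrates than LAT1. Its WT libraries stood at 66.5, 59.4 and 63.4 CPM, a narrow range. Those labelled Slc7a5-KO stood at 75.1, 53.5 and 80.1 CPM, on both sides of it. The means were 63.1 ± 3.59 and 69.6 ± 14.2 CPM, and the edgeR difference was 0.14 ± 0.16 on the log2 scale (95% interval -0.19 to 0.47) with an adjusted p of 0.96. Without Slc7a5-KO replicate 2 the log2 difference was 0.29, and without replicate 3 it was 0.03.

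Slc43a2 encodes LAT4, a facilitated carrier of leucine, isoleucine, valine, phenylalanine and methionine. It was the one tested transporter with a lower mean in those labelled Slc7a5-KO. The WT libraries held 92.0, 95.8 and 103 CPM. Those labelled Slc7a5-KO held 78.4, 99.2 and 86.3 CPM. Replicates 1 and 3 of the latter lay below all WT libraries and replicate 2 lay within the WT range. The means were 97.0 ± 5.81 and 88.0 ± 10.5 CPM, with an edgeR log2 difference of -0.14 ± 0.14 (95% interval -0.43 to 0.14) and an adjusted p of 0.95. Without Slc7a5-KO replicate 1 the log2 difference was -0.06, and without replicate 2 it was -0.24.

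Slc43a1 encodes LAT3, the other facilitated carrier of this family, and was close to undetected. WT replicates held 0, 0 and 1 reads, and Slc7a5-KO replicates 12, 2 and 8. These correspond to 0, 0 and 0.0362 CPM against 0.371, 0.0747 and 0.588 CPM. The groups did not overlap, with the libraries labelled Slc7a5-KO higher. Of the genes tested, 5.93% showed that pattern, but Slc43a1 was not among them. A share for genes with so few reads was not computed. Pooled over libraries, 1 read of 91.5 M gene reads stood against 22 of 71.8 M. The ratio of 28.0 had an exact 95% interval of 4.53 to 1156, which covers counting error only and not the spread between mice. Fitted by edgeR without the filter on low counts, the log2 difference was 4.41 ± 2.96, with an adjusted p of 0.70.

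The same pair of libraries was at one end for each transporter. Slc7a5-KO replicates 1 and 3 were the highest pair for Slc7a5, Slc3a2, Slc7a8 and Slc43a1, and the lowest pair for Slc43a2, while the order of the other 4 libraries differed between genes. This was noticed after the values were seen. Over all genes tested, which leave out Slc43a1, 7.51% had that pair as the highest and 7.29% as the lowest. Both libraries were read as female and the third of their group as male, and both held choroid plexus markers that were near 0 in the third. The part of either in this pattern was not tested.

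The spread of Slc7a5 between mice of 1 group was wide. Its SD on the log2 scale was 0.40 in WT, where 86.7% of 11575 genes with at least 5 CPM had a smaller SD, and 0.75 in those labelled Slc7a5-KO, where 98.2% had a smaller one. Slc3a2 was near the median gene, with an SD of 0.20 in both groups. Slc7a8 and Slc43a2 had narrow WT groups, with SDs of 0.08 and 0.09, that only 13.3% and 14.2% of genes undercut. In the other group their SDs were 0.31 and 0.17, below which lay 75.7% and 40.8% of genes.

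Over the 6 libraries, the other transporters were compared with Slc7a5 on log2(CPM + 0.1), with 4 correlations computed. Slc43a2 ran opposite to Slc7a5, with a Pearson r of -0.99 (exact permutation p = 0.00139, Benjamini-Hochberg adjusted 0.00556) and a Spearman rho of -1.0 (exact permutation p = 0.00278, adjusted 0.0111). The order of the 6 libraries for one gene was thus the exact reverse of that for the other. Without Slc7a5-KO replicates 1 and 3, the libraries farthest from the median of Slc7a5, r was -0.95 over 4 libraries. On deviations from each group's mean r was -0.99, and when scaled by library size alone it was -0.92. Slc3a2 ran with Slc7a5, with r = 0.90 (exact permutation p = 0.0167, adjusted 0.033) and rho = 0.83 (exact permutation p = 0.0583, adjusted 0.117). Its r was 0.68 over 4 libraries without Slc7a5-KO replicates 1 and 3 and 0.83 on deviations from the group means. Leaving out WT replicate 3 gave r = 0.84 (exact permutation p = 0.0667) and leaving out Slc7a5-KO replicate 1 gave r = 0.78 (exact permutation p = 0.117), and r was 0.91 to 0.95 without any other single library.

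For Slc7a8, r was 0.76 (exact permutation p = 0.0833, adjusted 0.0833) and rho 0.77 (exact permutation p = 0.103, adjusted 0.137). Without Slc7a5-KO replicates 1 and 3 its r was 0.018, so this relation rested on those libraries. For Slc43a1, r was 0.79 (exact permutation p = 0.0694, adjusted 0.0833) and rho 0.46 (exact permutation p = 0.372, adjusted 0.372), and r was -0.52 without the same pair. With 3 libraries in each group and 3 of each sex, a correlation within a group or within a sex was not computed. The points of a correlation are whole libraries, and each pair of values shares its scaling factor, tissue piece and sex.

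**Figure D2:**
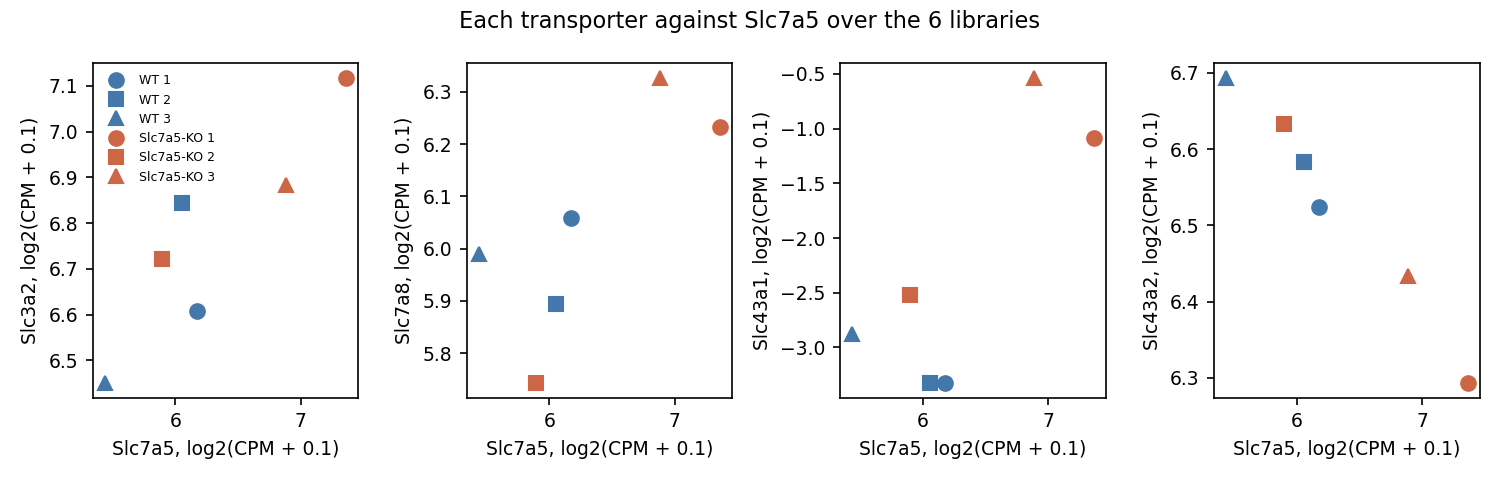
Each other transporter (vertical axis) against Slc7a5 (horizontal axis), both as log2(CPM + 0.1), 1 point per library. Slc43a2 falls along a line as Slc7a5 goes up (r = -0.99), Slc3a2 goes up with it (r = 0.90), and for Slc7a8 and Slc43a1 the relation rests on Slc7a5-KO replicates 1 and 3 at the right.

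Among 11571 tested genes with a mean of at least 5 CPM, only 1 gene had a lower r with Slc7a5 than Slc43a2 did. In the other direction, 87 genes had a higher r with Slc7a5 than Slc3a2 did, and 534 a higher one than Slc7a8. With so many genes and 6 libraries, high values occur at both ends. Outside the transporters, the 5 genes most like Slc7a5 were Mapre2 (r = 0.996), Slc25a23 (0.996), Zcchc7 (0.984), Zfp512b (0.981) and Tfg (0.974). Mapre2 encodes a microtubule end-binding protein and Slc25a23 a mitochondrial carrier, and their ranges over the 6 libraries, 284 to 345 CPM and 382 to 454 CPM, were far narrower in proportion than that of Slc7a5. The 5 most like Slc3a2 were Mkln1os (r = 0.994), Cdk2ap2 (0.986), Pcdhb11 (0.984), 2410002F23Rik (0.980) and Rnpep (0.977). None of these 10 genes passed the edgeR threshold.

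Levels of different genes were compared as reads per kilobase of merged exon per M gene reads. On this scale Slc3a2 had the highest level in WT, at 27.9 ± 2.91, followed by Slc7a5 at 16.2 ± 4.27, Slc7a8 at 12.5 ± 1.35 and Slc43a2 at 9.56 ± 0.684 (SD, n = 3). Slc43a1 was at 0.00211. The ranges of Slc3a2 (24.7 to 30.4) and Slc7a5 (11.6 to 20.1) did not overlap in WT, and neither did those of Slc7a8 (11.1 to 13.8) and Slc43a2 (8.91 to 10.3). The ranges of Slc7a5 and Slc7a8 did overlap, and in WT replicate 3 Slc7a8 stood above Slc7a5. In the libraries labelled Slc7a5-KO the levels were 34.6 ± 5.84 for Slc3a2, 31.3 ± 15.2 for Slc7a5, 14.1 ± 3.15 for Slc7a8, 8.83 ± 0.788 for Slc43a2 and 0.0615 for Slc43a1. Here Slc7a5 (15.7 to 46.1) overlapped with both Slc3a2 (29.2 to 40.8) and Slc7a8 (10.5 to 16.2), and in replicate 1 it was the highest of the 5. Each group's order of means was the same. With the longest coding transcript as the length, Slc3a2 was the highest in each library, and Slc43a2 stood above Slc7a5 in WT replicate 3 and above Slc7a8 in Slc7a5-KO replicate 2.

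**Figure D3:**
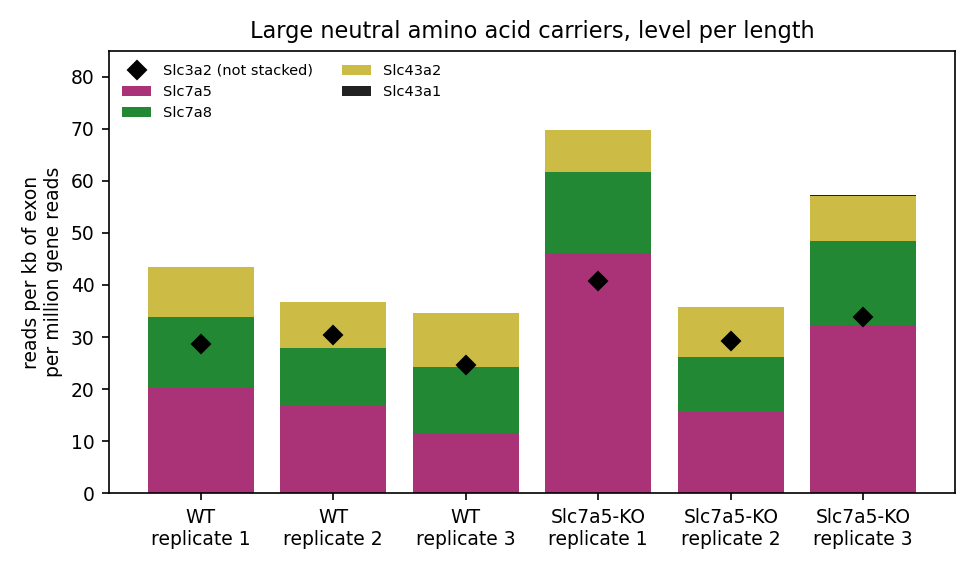
Stacked bars give reads per kilobase of exon per M gene reads for the 4 carriers in each library, and diamonds give the heavy chain Slc3a2 on the same scale, not stacked. Slc7a5 makes up 46.4%, 45.5% and 33.6% of the stack in WT replicates 1 to 3 and 66.0%, 43.8% and 56.3% in Slc7a5-KO replicates 1 to 3.

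Summed over the 4 carriers, the level per length was 38.2 ± 4.60 in WT and 54.3 ± 17.2 in those labelled Slc7a5-KO (SD, n = 3 each). Slc7a5 made up 41.9% ± 7.12 of that sum in WT and 55.4% ± 11.1 in the other group, and the ranges overlapped, with Slc7a5-KO replicate 2 inside the WT range. The heavy chain was also set against the sum of the 6 light chains that can pair with it (Slc7a5, Slc7a6, Slc7a7, Slc7a8, Slc7a10 and Slc7a11). This ratio was 0.372, 0.500 and 0.421 in WT and 0.435, 0.459 and 0.383 in those labelled Slc7a5-KO, with means of 0.431 ± 0.0646 and 0.426 ± 0.0388. All 3 of the latter lay within the WT range. Slc7a5 was 26.1%, 27.5% and 19.8% of the light chains in WT and 49.0%, 24.6% and 36.5% in Slc7a5-KO replicates 1 to 3. Transcript ratios do not measure how many chains are joined in the membrane.

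The other light chains of CD98hc did not pass the test in any case (0 of 4, with 2 values above 0 and 2 below, median log2 difference 0.01). The 2 with the smallest p were Slc7a7, which encodes y+LAT1 and exchanges cationic for neutral amino acids, at 0.46 ± 0.81, and Slc7a6, which encodes the related y+LAT2, at -0.10 ± 0.21, each with an edgeR adjusted p of 0.98. Slc7a7 was low, at 1.16 ± 0.761 CPM in WT and 1.60 ± 0.425 CPM in those labelled Slc7a5-KO.

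The list of 10 other genes for carrying leucine or other large neutral amino acids included Slc3a1, a heavy chain. It also held Slc7a6 and Slc7a7 again. Of the 10, 7 had enough reads to be tested and 0 passed, with 4 above 0 and 3 below and a median of 0.06. Slc6a14, Slc6a18 and Slc7a9 had 0 reads in each library. Slc16a10, which encodes the aromatic amino acid and thyroid hormone carrier TAT1, had the smallest p. It stood at 7.83, 10.4 and 7.82 CPM in WT and at 5.60, 5.53 and 5.81 CPM in those labelled Slc7a5-KO, so the groups did not overlap, with the latter lower, as in 5.54% of the genes tested. Its edgeR log2 difference was -0.62 ± 0.29, with an adjusted p of 0.80. The next was Slc6a15, a sodium-dependent carrier of branched-chain amino acids in neurons, at 0.18 ± 0.14 with an edgeR adjusted p of 0.93.

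The 5 glutamine carriers, which load cells with the amino acid that LAT1 can send out in exchange, had a median of 0.19, with 5 above 0 and 0 passed. Slc1a5, which encodes ASCT2, stood at 2.43, 1.84 and 1.49 CPM in WT and at 1.49, 2.95 and 6.91 CPM in those labelled Slc7a5-KO. Its edgeR log2 difference was 0.96 ± 0.56 with an adjusted p of 0.86. Slc38a5, which encodes SNAT5, stood at 4.58, 4.22 and 3.84 CPM in WT and at 4.37, 4.52 and 11.0 CPM in the other group. Its edgeR log2 difference was 0.64 ± 0.39 with an adjusted p of 0.86. In both, Slc7a5-KO replicate 3, the shallowest library, was the highest of the 6.

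The 3 thyroid hormone carriers had values below 0 (median -0.28, 0 passed). Beside Slc16a10, Slco1c1, a thyroxine carrier of the blood-brain barrier, had an edgeR log2 difference of -0.28 ± 0.18 with an adjusted p of 0.88. Of 4 proteins that bind CD98hc or LAT1, 0 passed, with 1 above 0 and a median of -0.06. Itgb1, the integrin beta-1 subunit that CD98hc binds, was at -0.17 ± 0.15 with an edgeR adjusted p of 0.94, and the galectin Lgals3 at 0.41 ± 0.51 with an edgeR adjusted p of 0.97. Slc43a3, the third gene of the SLC43 family, which takes up purine bases, had 45, 0 and 41 reads in WT and 42, 30 and 10 in those labelled Slc7a5-KO, with a log2 difference of 0.20.

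**Figure D4:**
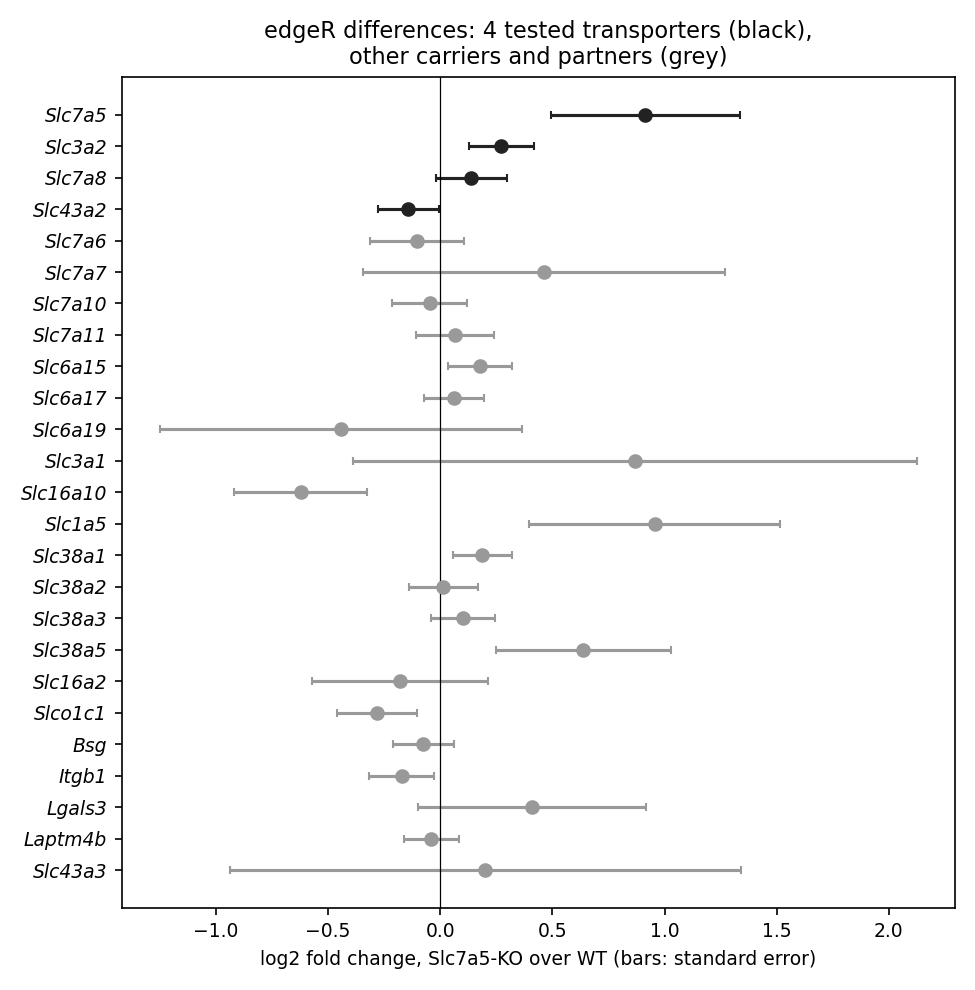
edgeR log2 fold changes of Slc7a5-KO over WT (horizontal axis) with standard errors as bars, for the 4 transporters tested (black) and the other carriers and partner proteins tested (grey). None passes an adjusted p of 0.05, and Slc7a5 at 0.91 has the largest value of the black points.

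Promoter windows from RefSeq (GRCm38.p6) were matched for 4 of the 5 genes, with 5 start sites, and cover the 250 bases before each start. Slc7a5 was the gene with no entry. They were searched on both strands for TGATGNAA (the core of the amino acid response element read by ATF4), TGACGTCA (a cAMP response element), CACGTG (an E-box), GGGCGG (a GC box) and CCAAT. TGATGNAA and TGACGTCA were found in none of the 5 windows; 3.45% and 1.55% of 32851 RefSeq windows of this length hold them. GGGCGG was in each of the 5 (32.7% of all windows hold it), and CACGTG in that of Slc43a1 (6.02%). CCAAT was in the window of Slc43a1 and both of Slc43a2 (33.8% of all windows). A match is a run of letters and not a measured site, and the absence of one speaks of this window only. The first start site of Slc43a2 is the one window with no base in an annotated exon of its gene, and is shown because that gene ran opposite to Slc7a5. It lies at chr11:75531444-75531693 on the plus strand, with the 3 GGGCGG and 2 CCAAT matches in capitals, those on the minus strand reading CCGCCC or ATTGG:

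Slc43a2: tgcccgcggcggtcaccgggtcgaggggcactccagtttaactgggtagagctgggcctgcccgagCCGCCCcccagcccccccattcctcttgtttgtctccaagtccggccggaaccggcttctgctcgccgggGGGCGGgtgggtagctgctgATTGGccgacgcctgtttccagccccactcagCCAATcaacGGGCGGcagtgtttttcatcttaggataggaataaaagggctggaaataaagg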

How the data were processed

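RNA of the cerebellum of 6 mice was sequenced from SENSE mRNA-Seq V2 libraries, 1 per mouse. The authors deposited read counts per gene, not normalised, in 3 columns per library (both strands and each strand). Per the submitters' processing notes, STAR 2.5.4, DESeq2 1.10.1 and R 3.2.4 were used with GRCm38 (mm10), with no role given for each tool. No annotation release or duplicate removal is stated in the labels, so counts may include PCR copies. The reverse-strand counts held 94.8% to 95.8% of strand-assigned reads and were used. Reads of no gene or several genes (19.5% to 22.2%) stayed out of library sizes. A table of the authors' own comparison is also deposited, with, per the file headers, a mean normalised count (signal), log2 fold changes, a Wald score and p-values.

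Symbols were matched for 46488 of 46983 identifiers. Genes were filtered with filterByExpr (minimum count 10, total 15), TMM-scaled, and tested in R 4.3.3 with edgeR 4.0.16 (quasi-likelihood, robust, 2-sided, Benjamini-Hochberg, threshold 0.05). Ratios and correlations used log2(CPM + 0.1). Scripts were tested on simulated data. The alternatives were DESeq2 1.42.0, limma-voom 3.58.1, other scalings, no filter, both strands, a sex term, a replicate block, and the omission of 1 library at a time. The length by longest coding transcript, and DESeq2 size factors for the correlations, were added after seeing the data. The transporters and gene lists were chosen with earlier results of these data known. Beside the 5 transporters, the named genes were the 2 with the smallest p in each list of carriers or partners, and the 5 most correlated with Slc7a5 or Slc3a2 among genes with a mean of at least 5 CPM. The astrocyte markers Gfap and S100b were named because their groups did not overlap.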

Additional observations from a re-analysis of the deposited data

Results flagged for a closer look

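The Slc7a8 difference between groups had opposite signs in the sexes read from the data. In females (1 WT, 2 Slc7a5-KO libraries) it was 0.39 on the log2 scale, and in the male libraries (2 WT, 1 Slc7a5-KO) -0.28. A test of the difference between the sexes by edgeR, added after seeing the data, gave 0.67 ± 0.27 with an adjusted p of 0.54. In the same split Slc43a2 also differed in sign, at -0.22 in females and 0.02 in males. Slc7a5, at 1.09 in females and 0.04 in males, and Slc3a2, at 0.16 and 0.19, were above 0 in both sexes. For Slc7a5 the edgeR difference between the sexes was 1.05 ± 0.37 and did not pass the threshold either. It rests on 1 WT female library and 1 Slc7a5-KO male library. The only male library labelled Slc7a5-KO was replicate 2, which stood apart in other ways. A difference between the sexes and a difference of that library thus cannot be told apart for any of these genes.

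Antisense reads over Slc7a5, a strand the comparisons do not use, numbered 11 in Slc7a5-KO replicate 1 and 0 in the other 5 libraries. The span of Gm20388, an annotated gene on the opposite strand, takes in all of Slc7a5. Whether its exons overlap those of Slc7a5 was not tested, nor was the source of these reads.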

How the results depend on the processing

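The count of genes past the threshold was 8 and depended on the settings: 71 without a filter on low counts, 44 by DESeq2, 16 with a sex term, and 3 to 20 when 1 library was left out. Slc7a5 had a positive value under each alternative, 0.55 to 1.22 without 1 library (adjusted p = 0.010 without Slc7a5-KO replicate 2) and 0.57 to 0.96 otherwise. Without 1 library, Slc3a2 was 0.16 to 0.39, Slc7a8 0.03 to 0.29, Slc43a2 -0.24 to -0.06, the ratio of Slc7a5 to Slc3a2 0.34 to 0.87, Slc7a5 relative to endothelial markers 0.40 to 1.20, and the Slc43a1 difference 0.21 to 0.47 CPM. These directions held under the other alternatives run, and none of these genes passed in them. Slc43a1 had no value by DESeq2, voom, the block or the sex term, being under the filter. The r of Slc43a2 with Slc7a5 was -0.99 to -0.98 without 1 library. With the replicate block, Slc7a5 was 0.84 (edgeR adjusted p = 0.85), Slc3a2 0.27, Slc7a8 0.12 and Slc43a2 -0.15, and 6 genes passed. Whether the numbers pair the samples could not be settled with 3 libraries per group. Same-numbered libraries had correlations of deviations of -0.038, -0.059 and -0.027, and different-numbered ones -0.032 to 0.067. Slc43a1, with 0 to 12 reads per library, was too low at this depth for the test.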
